A study of Rattus norvegicus with 21 samples.

Results

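The genes described here are 45 genes of macrophages and other leukocytes, read in the anterior lobe of the pituitary of male rats. Every probe set whose platform symbol is one of the 45 names was taken. This rule uses no measured value, but the names were listed with earlier results of these data known. The array carried 41 of them on 50 probe sets, out of 14217 genes with a symbol of their own. Msr1, Marco, Vsig4 and Spi1 had no probe set under their own symbol and have no value here.

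Rats of 3 inbred strains were used, ACI, Copenhagen (COP) and Brown Norway (BN). Control rats carried an empty silastic tubing implant from 9 weeks of age, and in treated rats the tubing was filled with 5 mg of the synthetic estrogen diethylstilbestrol (DES). Every rat, control or treated, was given BrdU (50 mg/kg) in the 4 hours before death at 21 weeks, after 12 weeks with the implant. Gland RNA was read on 21 Affymetrix Rat Genome 230 2.0 arrays, so that each strain had 3 of controls and 4 of treated rats, or 6 groups in all. The design counts each array as a biological replicate, but the notes to the samples name 1 fewer independent replicate than arrays in each group, so the p values measure the spread between arrays, some of which may be technical.

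Macrophages live in most organs and depend on the receptor Csf1r and its ligands Csf1 and Il34, and on the transcription factor PU.1, the product of Spi1. They engulf cells and particles through scavenger and Fc receptors. Many of these receptors signal through small adaptors with an activating motif (ITAM), such as Tyrobp and Fcer1g, while others carry an inhibitory motif (ITIM) that recruits the phosphatase Ptpn6. The pituitary is known to hold resident macrophages among its hormone cells, beside the folliculostellate cells, which are not of blood origin.

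All values below are array signals on a linear scale, and differences are of log2(signal + 16), which understates the change of dim genes. Tests were run on probe sets above the array's 40th percentile, a signal of 67.0 to 90.6, on at least 3 arrays. Of the 41 members 39 were tested, and Cd180 and Cd8a were not. A difference is said to be called, or a gene to have risen or fallen, at an adjusted p under 0.05 in limma. In 9 of the 39, Cd37, Itgam, Lcp2, Mrc1, Ncf1, Pilra, Tlr2, Trem2 and Vav1, fewer than 3 of the 9 control arrays exceeded that percentile, so these were tested only because DES arrays did, and the counts below are given as a description.

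The label was checked on its 3 markers. The lysosomal glycoprotein Cd68 exceeded the percentile on all 21 arrays. The inhibitory Fc receptor Fcgr2b did so on 15 arrays, with none of the ACI and COP controls among them, and the inhibitory receptor Pilra on 10 arrays, 1 of them a control. The pituitary hormone genes Prl and Gh1 averaged 32224 ± 7524 and 31488 ± 10573 (SD, n = 3) in ACI controls, and their lowest group means were 27608 ± 1849 and 23460.4 ± 2857 in BN controls. In bulk RNA, more cells of a type and more RNA per cell cannot be told apart.

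Promoters were searched for GAGGAA, because words holding it are bound by PU.1, a factor of this lineage. Spi1, which encodes PU.1, had no value here, and a part of PU.1 in these changes was not tested. RefSeq sequences (build GRCr8) were held for 30 of the 45 members, and the 250 bases before each start were searched on both strands. GAGGAA was found in 18 of the 30, and in 23.2% of all 27457 promoters of that length. Among the 18 were Lyz2 and Tlr4, which rose in no strain, and Marco, which had no probe set. Among those without the word were Ncf1, Hcls1 and Pilra, which rose in ACI and COP. The longer word GAGGAAGT, which contains it, was in 4 of 30 (Cd37, Cd53, Fcgr3a and Vav1) and in 2.04% of all. The M-box TCATGTGA, bound by factors of the MiT family, was in Gpnmb alone of the 30 and in 0.965% of all. The E-box CACGTG was in none of the 30 and in 5.79% of all, and the AP-1 word TGANTCA in 4 of 30 and in 6.36% of all. The consensus palindromic estrogen response element was in none of the 30 and in 0.0219% of all. A match describes letters and not binding. The promoters below were picked from members that rose, so they cannot show whether the word goes with a rise, which was not tested. Below are Gpnmb at chr4:79340878-79341127 (plus strand), which had the largest rise of the members in each strain, Cd68 at chr10:54882442-54882691 (minus strand), Fcgr3a at chr13:85782386-85782635 (plus strand) and Cd53 at chr2:197087897-197088146 (minus strand), 3 members with GAGGAA that rose in ACI and COP, and Pilra at chr12:23452447-23452696 (plus strand), which rose without that word. Each reads 5′ to 3′ along the gene, and capitals mark GAGGAA or its reverse complement TTCCTC and, in Gpnmb, also the M-box.
Gpnmb: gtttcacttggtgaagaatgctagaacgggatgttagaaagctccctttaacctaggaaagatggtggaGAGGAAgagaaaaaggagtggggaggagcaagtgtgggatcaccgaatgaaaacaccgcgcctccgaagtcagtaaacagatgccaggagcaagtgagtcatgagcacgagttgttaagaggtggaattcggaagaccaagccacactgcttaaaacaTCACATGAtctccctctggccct
Cd68: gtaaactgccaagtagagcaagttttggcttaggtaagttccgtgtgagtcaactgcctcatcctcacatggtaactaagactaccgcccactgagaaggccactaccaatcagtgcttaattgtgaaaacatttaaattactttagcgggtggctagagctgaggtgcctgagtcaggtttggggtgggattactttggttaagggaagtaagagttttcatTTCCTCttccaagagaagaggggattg
Fcgr3a: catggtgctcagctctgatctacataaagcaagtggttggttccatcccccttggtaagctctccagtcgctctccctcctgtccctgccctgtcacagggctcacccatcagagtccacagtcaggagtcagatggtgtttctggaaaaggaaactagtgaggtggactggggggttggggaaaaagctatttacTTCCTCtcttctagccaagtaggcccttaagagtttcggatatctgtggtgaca
Cd53: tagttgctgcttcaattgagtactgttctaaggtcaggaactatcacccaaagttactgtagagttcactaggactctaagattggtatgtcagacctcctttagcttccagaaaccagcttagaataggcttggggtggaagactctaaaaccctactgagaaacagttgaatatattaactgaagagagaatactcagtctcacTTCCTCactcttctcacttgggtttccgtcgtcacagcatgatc
Pilra: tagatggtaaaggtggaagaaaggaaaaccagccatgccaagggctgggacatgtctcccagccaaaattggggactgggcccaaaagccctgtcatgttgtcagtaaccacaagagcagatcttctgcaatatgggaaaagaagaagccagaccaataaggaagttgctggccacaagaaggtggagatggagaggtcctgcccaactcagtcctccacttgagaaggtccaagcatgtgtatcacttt

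Most members rose with DES in ACI and COP, and few did in BN. In ACI 29 of 39 tested members rose, against 23.1% of all genes tested, and 1 fell, against 32.4%. In COP 31 rose, against 21.6% of all genes, and 2 fell, against 28.1%. In BN 9 rose, or 23.1% of the 39 beside 16.9% of all genes, so the share that rose was near the background. In BN 1 fell, or 2.56% beside 22.6%, so the share that fell was below it. Over all 41 members, without any filter, the median log2 difference was 0.89 in ACI and 1.26 in COP, against 0.20 in BN, and 37, 38 and 31 of the 41 were above 0. The same medians over the 14217 genes were -0.11, -0.04 and -0.02, and 43.5%, 47.5% and 48.8% of these genes were above 0. The count in BN went from 9 to 4 without BN control 2.

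Array by array, the median member lay 0.90 to 1.26 above its own strain's control mean on the ACI DES arrays and 1.15 to 1.34 above it on the COP DES arrays (log2). The 4 BN DES arrays read 0.07, 0.03, 0.23 and 0.59, so the arrays numbered 3 and 4 were the higher pair in BN. The labels name no batch, but the arrays numbered 1 and 2 and those numbered 3 and 4 deviated from their group means as 2 sets. Within the arrays numbered 1 and 2 alone, 29, 29 and 5 members rose in ACI, COP and BN, and 1, 2 and 5 fell. Within the arrays numbered 3 and 4 alone, with 1 control array a group, 18, 22 and 8 rose and 1 fell in each strain. With the sets as a block, 12 rose and 1 fell in BN, where Cd4, Cd53 and Tyrobp were added to the 9, and Cd4 was added in COP. The share of all genes called was not taken for these subsets and blocks, so their counts cannot be set against it.

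**Figure D1:**
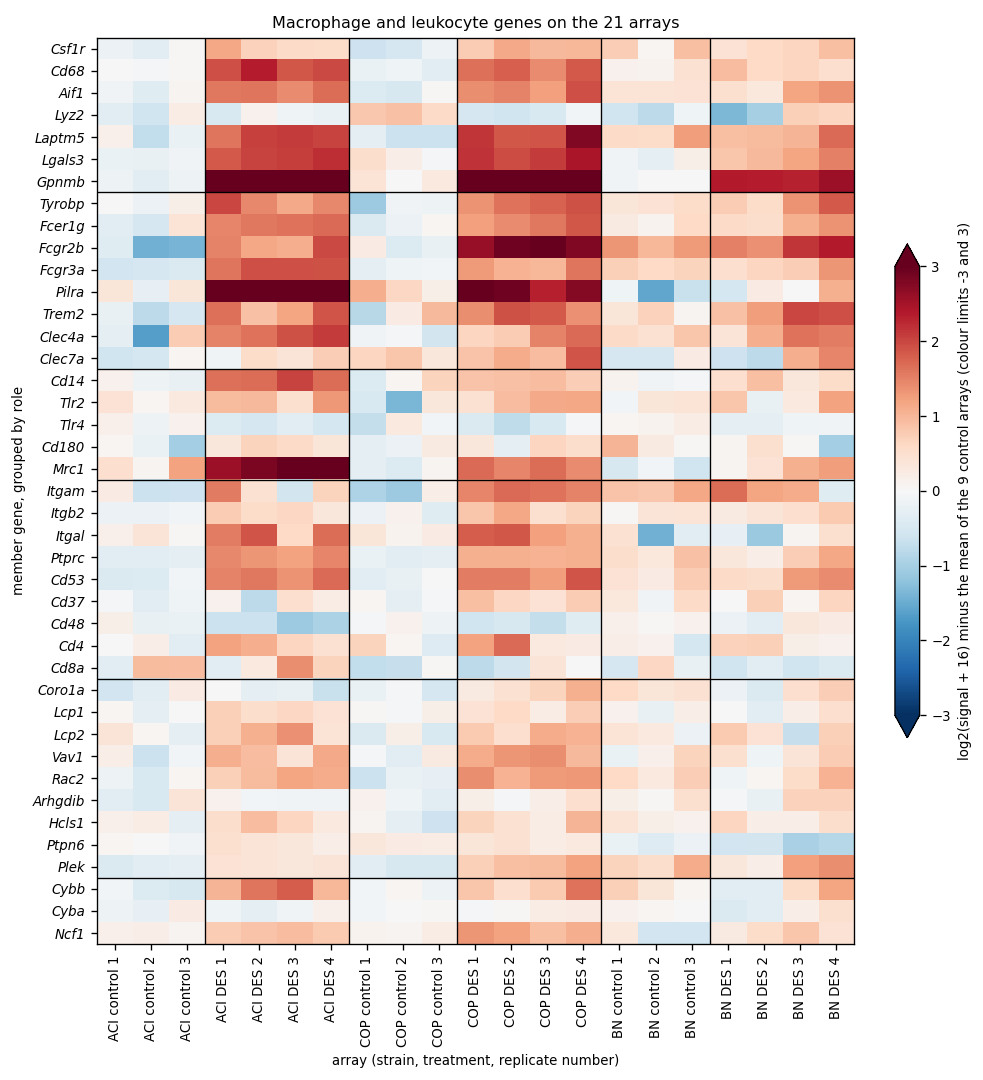
Each row is a member gene and each column an array, and color gives log2(signal + 16) minus the mean of the 9 control arrays, with limits of -3 and 3. Horizontal lines part the roles and vertical lines the 6 groups. The ACI and COP DES columns are red for most members, while among the BN DES columns the arrays numbered 3 and 4 are the redder pair.

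The called lists overlapped as follows. A total of 27 members rose in both ACI and COP, which is 93.1% of the ACI risers and 87.1% of the COP risers. Over all genes tested, 2141 rose in both strains, or 78.8% and 84.2%. Of the 27 members, 9 also rose in BN, beside 1367 of the 2141 genes. These were Cd14, Cd68, Fcer1g, Gpnmb, Lgals3, Mrc1, Ncf1, Pilra and Trem2. The remaining 18 of the 27 were not called there, beside 36.2% of the 2141 genes not called higher there. Cd4 and Ptpn6 were called higher in ACI alone, and Cd37, Coro1a, Itgam and Tlr2 in COP alone. No member was called higher in BN alone, where 13 of the 39 had an unadjusted p under 0.05. Arhgdib, Cd48, Clec7a, Cyba, Lyz2 and Tlr4 were called higher in no strain.

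**Figure D2:**
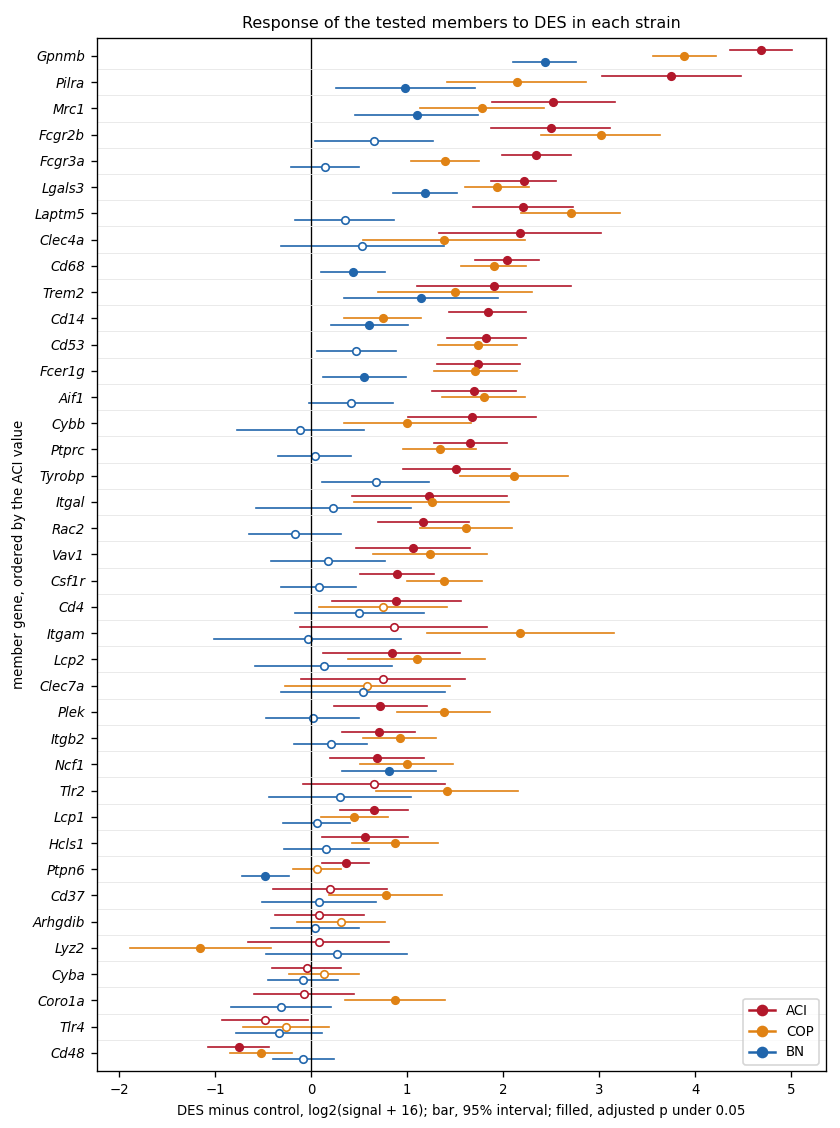
The horizontal axis gives the DES minus control difference of log2(signal + 16) with its 95% interval for each of the 39 tested members, in ACI (red), COP (orange) and BN (blue). Filled points passed an adjusted p under 0.05. Gpnmb stands at the top with 4.68, 3.88 and 2.43, and most blue points lie left of the red and orange points of the same gene.

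The first role holds the CSF1 receptor and the contents of phagocytes, of which 7 were tested. In ACI 6 rose and in COP 6 rose and Lyz2 fell, while in BN 3 rose. Differences ran from 0.08 to 4.68 (ACI), -1.15 to 3.88 (COP) and 0.08 to 2.43 (BN).

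Gpnmb is a transmembrane glycoprotein of macrophages that handle much lysosomal cargo. Gpnmb read 70.2, 61.2 and 71 on the ACI control arrays and 1560.5, 2084, 2204 and 2851 on the ACI DES arrays. The Gpnmb signals in COP were 111, 80.0 and 103 in controls and 1700.5, 1711, 1468 and 1759 after DES. In BN, Gpnmb read 73.9, 79.3 and 81.2 in controls and 486, 473, 460.4 and 551 after DES. In each strain all DES arrays lay far above all controls, and the BN DES arrays lay below every ACI and COP DES array. No ACI control of Gpnmb exceeded the percentile used for testing, while 3 COP controls and 2 BN controls did. With DES, Gpnmb rose by 4.68 ± 0.16 (SE; adjusted p = 6.09e-16) in ACI, 3.88 ± 0.16 (SE; adjusted p = 2.31e-14) in COP and 2.43 ± 0.16 (SE; adjusted p = 1.02e-10) in BN on the log2 scale.

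Cd68 is carried in lysosomes and endosomes of macrophages. Cd68 read 120.5, 114 and 123 on the ACI control arrays and 500.1, 678, 478 and 522 on the ACI DES arrays. The Cd68 signals in COP were 103, 108 and 90.9 in controls and 414, 455, 344 and 470.1 after DES. In BN, Cd68 read 132, 130.0 and 171 in controls and 240.2, 188, 196 and 178 after DES. The DES arrays lay above the controls in every strain, but in BN the highest control and the lowest DES array were close. With DES, Cd68 rose by 2.04 ± 0.16 (SE; adjusted p = 7.02e-10) in ACI, 1.90 ± 0.16 (SE; adjusted p = 3.61e-09) in COP and 0.43 ± 0.16 (SE; adjusted p = 0.0425) in BN. A two-sided exact permutation test on the absolute difference of means gave p = 0.0286 in each strain, the smallest that 35 splits of 3 and 4 arrays allow. The BN call was lost without BN control 1, BN control 2, BN DES 1 or BN DES 3. It was also lost without ACI DES 4 or COP DES 1, which enter only through the shared spread, the filter and the adjustment. The BN difference was 0.12 within the arrays numbered 3 and 4.

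Lgals3 encodes galectin-3, a lectin secreted by activated macrophages and also made by other cells. Lgals3 read 392, 386 and 416 on the ACI control arrays and 1649, 1890.5, 1934 and 2161 on the ACI DES arrays. The Lgals3 signals in COP were 659.9, 517 and 442 in controls and 2082, 1807, 1979 and 2512 after DES. In BN, Lgals3 read 419.9, 371 and 509 in controls and 814, 893, 1046 and 1316 after DES. No control overlapped a DES array of its strain, and the BN DES arrays were again the lowest of the 3 treated groups. With DES, Lgals3 rose by 2.21 ± 0.16 (SE; adjusted p = 1.72e-10) in ACI, 1.93 ± 0.16 (SE; adjusted p = 2.42e-09) in COP and 1.19 ± 0.16 (SE; adjusted p = 5.57e-06) in BN.

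Laptm5 is a lysosomal membrane protein of blood cells. Laptm5 read 204, 102 and 157 on the ACI control arrays and 590.4, 801, 829.8 and 796 on the ACI DES arrays. The Laptm5 signals in COP were 145, 111 and 109.9 in controls and 858, 707, 715 and 1351 after DES. In BN, Laptm5 read 279, 276 and 459 in controls and 353, 365, 389 and 633 after DES. In ACI and COP the groups were apart, whereas BN control 3 exceeded 3 of the 4 BN DES arrays. With DES, Laptm5 rose by 2.21 ± 0.25 (SE; adjusted p = 1.65e-07) in ACI and 2.70 ± 0.25 (SE; adjusted p = 1.25e-08) in COP, and the BN difference was 0.35 ± 0.25 (SE; adjusted p = 0.308). The dimmer of the Laptm5 probe sets gave 1.64, 1.68 and 0.53, and was called in BN too (adjusted p = 0.00524).

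Csf1r is the receptor through which CSF1 and IL34 keep macrophages alive. Csf1r read 336, 304 and 386 on the ACI control arrays and 868, 624, 569 and 565 on the ACI DES arrays. The Csf1r signals in COP were 243, 263 and 341 in controls and 653, 858, 758 and 771 after DES. In BN, Csf1r read 645, 397 and 724 in controls and 519, 587, 601 and 728 after DES. BN controls spread widely and overlapped the BN DES arrays, while in ACI and COP every DES array lay above every control. With DES, Csf1r rose by 0.89 ± 0.19 (SE; adjusted p = 4.06e-04) in ACI and 1.39 ± 0.19 (SE; adjusted p = 3.01e-06) in COP, and the BN difference was 0.08 ± 0.19 (SE; adjusted p = 0.782).

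Aif1, the calcium-binding protein IBA1 of macrophages, rose by 1.70 ± 0.21 (SE; adjusted p = 5.74e-07) in ACI and 1.80 ± 0.21 (SE; adjusted p = 3.67e-07) in COP, and the BN difference was 0.42 ± 0.21 (SE; adjusted p = 0.134). Its further probe set was dim and gave -0.55, 0.86 and -0.04, none of them called. Lyz2, the lysozyme of macrophages, went the other way in COP. COP controls read 4729, 4976 and 4055 and COP DES arrays 1917, 1797, 1978 and 2565, with no overlap. Lyz2 fell there with a log2 difference of -1.15 ± 0.35 (SE; adjusted p = 0.0111), and was not called in ACI (0.08) or BN (0.27). BN DES arrays of Lyz2 read 1059, 1346, 4446 and 4279.5, the first pair below all BN controls and the other pair above them. Rat lysozyme genes are near-identical copies, and a probe set may read more than 1 of them.

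**Figure D3:**
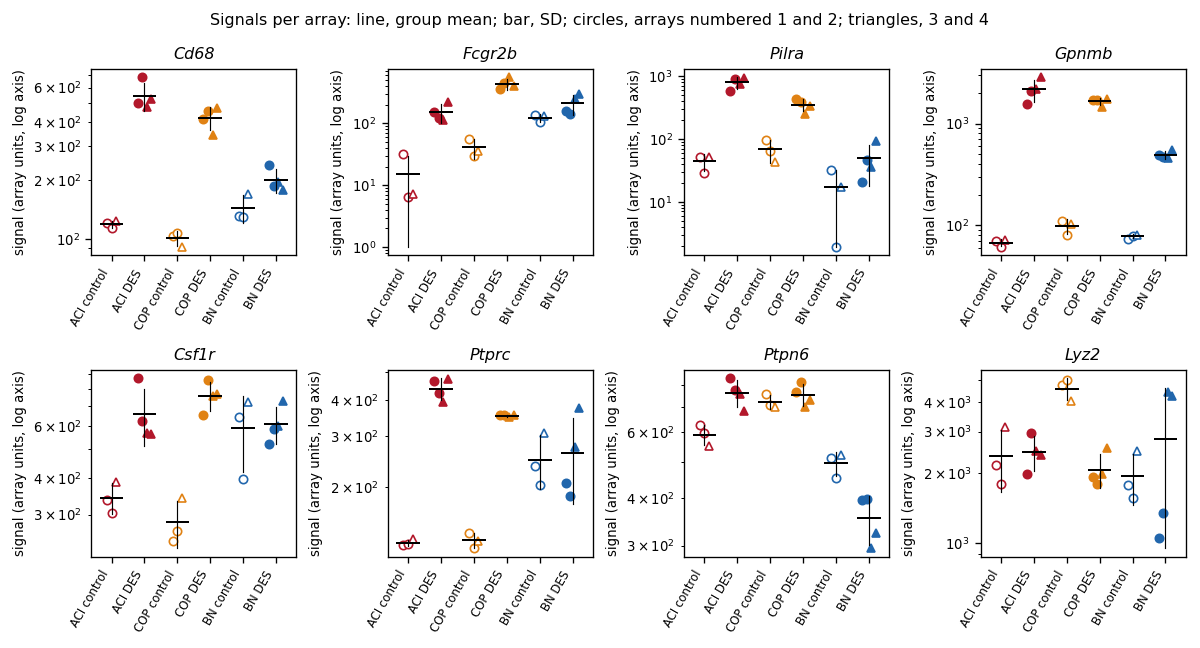
Each panel gives the signal of a member on every array (log axis), open for controls and filled for DES, with the group mean as a line and the SD as a bar, cut at 1 where it would reach lower. In the Cd68, Pilra, Gpnmb and Ptprc panels ACI and COP DES arrays stand clear of their controls and above the BN DES arrays, except that BN DES 4 of Ptprc (378) exceeds the COP DES arrays. Ptpn6 falls in BN and Lyz2 in COP.

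Of the 8 receptors and adaptors with ITAM or ITIM signaling, 7 rose in ACI, 7 in COP and 3 in BN. None fell. Their differences ran from 0.75 to 3.75 (ACI), 0.59 to 3.01 (COP) and 0.14 to 1.14 (BN).

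Fcgr2b, the inhibitory receptor for IgG, was dim in ACI and COP controls. Fcgr2b read 31.6, 6.5 and 7.3 on the ACI control arrays and 154, 120.5, 115 and 224 on the ACI DES arrays. The Fcgr2b signals in COP were 56.8, 29.8 and 36.3 in controls and 359, 444, 559 and 401 after DES. In BN, Fcgr2b read 136, 105 and 133 in controls and 158, 142, 252 and 304 after DES. Every ACI and COP control lay below the percentile used for testing, while every BN control lay above it. In each strain all DES arrays were above all controls. With DES, Fcgr2b rose by 2.49 ± 0.30 (SE; adjusted p = 3.82e-07) in ACI and 3.01 ± 0.30 (SE; adjusted p = 3.58e-08) in COP, and the BN difference was 0.65 ± 0.30 (SE; adjusted p = 0.0977). The exact permutation p was 0.0286 in ACI and COP and 0.114 in BN. Fc gamma receptors are similar in sequence, so probe sets of Fcgr2b and Fcgr3a may share signal.

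Pilra is an inhibitory receptor of myeloid cells with a close copy in the rat genome. Pilra read 52.1, 28.6 and 52 on the ACI control arrays and 583, 896, 743 and 947 on the ACI DES arrays. The Pilra signals in COP were 97.1, 64.8 and 43.6 in controls and 427, 383, 251 and 339 after DES. In BN, Pilra read 31.9, 1.9 and 17 in controls and 20.8, 46.2, 36.1 and 93.9 after DES. In ACI and COP the groups were far apart, and BN control 1 exceeded BN DES 1. Among BN arrays DES 4 alone exceeded the percentile, and BN control 2 was the dimmest value of any member given array by array. With DES, Pilra rose by 3.75 ± 0.35 (SE; adjusted p = 8.25e-09) in ACI, 2.14 ± 0.35 (SE; adjusted p = 3.18e-05) in COP and 0.98 ± 0.35 (SE; adjusted p = 0.0332) in BN. The exact permutation p was 0.0286, 0.0286 and 0.114. The BN call was lost without BN control 2 (difference 0.60), BN control 3, BN DES 2 or BN DES 4. It was also lost with a pseudocount of 64 (0.46), and held with 1 (1.87).

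Fcgr3a, an activating receptor for IgG on macrophages and NK cells, was bright enough on all 21 arrays. Fcgr3a read 152, 161 and 169.6 on the ACI control arrays and 740.5, 941, 938 and 924 on the ACI DES arrays. The Fcgr3a signals in COP were 188, 212 and 221 in controls and 583, 499.7, 481 and 746 after DES. In BN, Fcgr3a read 393, 358 and 381 in controls and 338, 372, 402 and 605 after DES. Its BN controls were above every ACI and COP control, and BN DES 1 was below them. With DES, Fcgr3a rose by 2.34 ± 0.17 (SE; adjusted p = 1.91e-10) in ACI and 1.40 ± 0.17 (SE; adjusted p = 8.15e-07) in COP, and the BN difference was 0.14 ± 0.17 (SE; adjusted p = 0.555).

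Of the 2 adaptors, Tyrobp was called in ACI and COP and Fcer1g in all 3 strains. Tyrobp, the adaptor of Trem2 and other activating receptors, rose by 1.51 ± 0.27 (SE; adjusted p = 6.99e-05) in ACI and 2.11 ± 0.27 (SE; adjusted p = 1.36e-06) in COP, and the BN difference was 0.67 ± 0.27 (SE; adjusted p = 0.0598). Fcer1g, the gamma chain of Fc receptors, rose by 1.74, 1.71 and 0.55 in ACI, COP and BN. Trem2, a lipid-sensing receptor, rose by 1.90, 1.50 and 1.14, and was below the percentile on all 9 control arrays. Of these BN calls, that of Fcer1g was lost in 11 of the fits that left out 1 array and that of Trem2 in 4. Clec4a, an inhibitory lectin, rose by 2.17 in ACI and 1.38 in COP. It exceeded the percentile on 1 ACI control array, no COP control array and 2 BN control arrays. Clec7a, the receptor for beta-glucan, was not called in any strain, at 0.75, 0.59 and 0.54.

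Among pattern recognition and scavenger receptors 4 of 5 on the array were tested. Of these, 2 rose in ACI, 3 in COP and 2 in BN. Cd14 binds bacterial lipopolysaccharide for Tlr4. Cd14 read 206, 168 and 158 on the ACI control arrays and 622, 634, 813 and 633 on the ACI DES arrays. The Cd14 signals in COP were 138, 195 and 307 in controls and 353, 360.4, 372 and 321 after DES. In BN, Cd14 read 203, 172 and 178 in controls and 271, 364, 243 and 284 after DES. All 3 strains had DES arrays above their controls, with COP control 3 close to the lowest COP DES array. With DES, Cd14 rose by 1.84 ± 0.19 (SE; adjusted p = 5.61e-08) in ACI, 0.75 ± 0.19 (SE; adjusted p = 0.00328) in COP and 0.60 ± 0.19 (SE; adjusted p = 0.019) in BN. The BN call was lost without BN control 2, BN control 3 or BN DES 2.

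Mrc1 is the mannose receptor, a scavenger receptor of tissue macrophages. Mrc1 read 75.2, 52.2 and 132 on the ACI control arrays and 364, 440.5, 647 and 827 on the ACI DES arrays. The Mrc1 signals in COP were 36.7, 31.9 and 51.5 in controls and 192, 161, 190.2 and 156 after DES. In BN, Mrc1 read 29.8, 44.3 and 26.2 in controls and 52.4, 70.0, 118 and 136 after DES. The groups did not overlap in any strain, and ACI DES arrays were the brightest. With DES, Mrc1 rose by 2.52 ± 0.31 (SE; adjusted p = 5.49e-07) in ACI, 1.78 ± 0.31 (SE; adjusted p = 6.96e-05) in COP and 1.10 ± 0.31 (SE; adjusted p = 0.00847) in BN. Tlr2, a receptor for bacterial lipoproteins, rose in COP by 1.41 ± 0.36 (SE; adjusted p = 0.00271) and was not called in ACI (0.66) or BN (0.30). Tlr4, the signaling receptor for lipopolysaccharide, gave -0.48, -0.26 and -0.33, none called. Cd180, a Tlr4 relative best known in B cells, exceeded the percentile on none of the 21 arrays.

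Integrins and leukocyte surface proteins numbered 8 tested members. In ACI 5 rose and 1 fell, in COP 6 rose and 1 fell, and in BN none was called in either direction, with differences from -0.08 to 0.50. In BN, Cd53 was the member of this role with an unadjusted p under 0.05.

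Ptprc encodes CD45, the phosphatase that all leukocytes carry. Ptprc read 125, 127 and 132 on the ACI control arrays and 466, 423, 395 and 474 on the ACI DES arrays. The Ptprc signals in COP were 139, 123 and 129.8 in controls and 355, 355, 349.9 and 355 after DES. In BN, Ptprc read 237, 203 and 308 in controls and 206, 186, 277 and 378 after DES. The COP DES arrays were nearly equal, and the BN groups overlapped. With DES, Ptprc rose by 1.66 ± 0.18 (SE; adjusted p = 1.25e-07) in ACI and 1.34 ± 0.18 (SE; adjusted p = 3.83e-06) in COP, and the BN difference was 0.03 ± 0.18 (SE; adjusted p = 0.908), with a 95% interval of -0.35 to 0.42. Its dimmer probe set gave 2.49, 1.31 and 0.64, with the same calls.

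Cd53 is a tetraspanin found across leukocytes. Cd53 read 261, 264 and 337 on the ACI control arrays and 1019, 1092, 929 and 1185 on the ACI DES arrays. The Cd53 signals in COP were 279, 301 and 361 in controls and 1056, 1063, 868 and 1365 after DES. In BN, Cd53 read 487, 426 and 613 in controls and 541, 522, 887 and 977 after DES. BN control 3 exceeded BN DES 1 and 2, and there was no overlap in ACI or COP. With DES, Cd53 rose by 1.82 ± 0.20 (SE; adjusted p = 9.28e-08) in ACI and 1.73 ± 0.20 (SE; adjusted p = 2.92e-07) in COP, and the BN difference was 0.47 ± 0.20 (SE; adjusted p = 0.0723).

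The integrin chain Itgb2, shared by the leukocyte integrins, rose by 0.70 in ACI and 0.92 in COP. Its partners differed in their calls. Itgal, the chain of LFA-1, rose by 1.23 and 1.26. Itgam, the chain of complement receptor CR3, was called in COP alone (2.18), and its ACI difference of 0.86 was not called. Whether the ACI and COP responses of Itgam differ was tested and not called, at -1.32 ± 0.66 (SE; adjusted p = 0.522).

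Cd48, a ligand of the SLAM family found on most blood cells, fell. Its signals dropped from 1713 ± 265 to 1011 ± 161 in ACI and from 1773 ± 180.5 to 1232 ± 134 in COP (SD, n = 3 and 4). The differences were -0.75 ± 0.15 (SE; adjusted p = 3.03e-04) and -0.52 ± 0.15 (SE; adjusted p = 0.00878), against -0.08 ± 0.15 (SE; adjusted p = 0.731) in BN. The COP call was lost without COP control 2. Cd4, which rat macrophages carry as well as helper T cells, rose by 0.89 ± 0.32 (SE; adjusted p = 0.0269) in ACI and gave 0.75 ± 0.32 (SE; adjusted p = 0.0665) in COP, where it was called with the number sets as a block, so that the call in ACI alone shows no difference between these strains. The ACI call was lost without ACI control 1, ACI control 3, ACI DES 1 or ACI DES 2. Cd37, a tetraspanin of B cells and other leukocytes, was called in COP alone (0.77), a call lost without COP control 2, COP control 3, COP DES 1 or COP DES 4. Cd8a, the coreceptor of cytotoxic T cells, exceeded the percentile on 1 of 21 arrays.

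In the role of blood cell signaling and cytoskeleton 9 members were tested. There, 7 rose in ACI and 7 in COP, and in BN none rose and Ptpn6 fell. The BN differences ran from -0.48 to 0.17.

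Rac2 is the blood cell form of the GTPase Rac, which also activates the NADPH oxidase. Rac2 read 126, 97.9 and 148 on the ACI control arrays and 240.2, 286, 342 and 321 on the ACI DES arrays. The Rac2 signals in COP were 83.8, 121 and 116 in controls and 394, 306, 363 and 370.4 after DES. In BN, Rac2 read 222, 175 and 247 in controls and 127, 146, 213 and 307 after DES. BN DES 1 and 2 lay below all BN controls and BN DES 4 above them. With DES, Rac2 rose by 1.17 ± 0.23 (SE; adjusted p = 2.10e-04) in ACI and 1.61 ± 0.23 (SE; adjusted p = 6.10e-06) in COP, and the BN difference was -0.17 ± 0.23 (SE; adjusted p = 0.619).

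Plek encodes pleckstrin, a substrate of protein kinase C in blood cells. Plek read 109, 121 and 123 on the ACI control arrays and 212, 205, 197 and 204 on the ACI DES arrays. The Plek signals in COP were 116, 104 and 106 in controls and 262, 299.5, 308 and 376 after DES. In BN, Plek read 251, 229 and 352 in controls and 196, 178, 379.6 and 429.6 after DES. BN again divided by array number, with DES 1 and 2 below every control and DES 3 and 4 above every control. With DES, Plek rose by 0.72 ± 0.23 (SE; adjusted p = 0.0133) in ACI and 1.38 ± 0.23 (SE; adjusted p = 4.91e-05) in COP, and the BN difference was 0.02 ± 0.23 (SE; adjusted p = 0.969).

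Ptpn6 is the phosphatase SHP-1, which ITIM receptors recruit. Ptpn6 read 625, 596 and 551 on the ACI control arrays and 833, 778, 758 and 683 on the ACI DES arrays. The Ptpn6 signals in COP were 758, 708 and 698 in controls and 765, 817, 701 and 730.0 after DES. In BN, Ptpn6 read 512, 453 and 522 in controls and 397, 399.8, 295 and 324 after DES. DES arrays were above controls in ACI and below controls in BN, and in COP the groups overlapped. With DES, Ptpn6 rose by 0.36 ± 0.12 (SE; adjusted p = 0.0159) in ACI, gave 0.06 ± 0.12 (SE; adjusted p = 0.721) in COP, where it was not called, and fell in BN with a difference of -0.48 ± 0.12 (SE; adjusted p = 0.00353). The ACI call was lost without ACI control 3.

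Vav1, an exchange factor for Rac, rose by 1.06 in ACI and 1.24 in COP. Lcp1, the actin-bundling protein L-plastin, rose by 0.65 and 0.45, and Hcls1, a cortactin relative, by 0.56 and 0.87. Lcp2, the adaptor SLP-76, rose by 0.84 and 1.10, but its ACI call was lost in 13 of the fits that left out 1 array, and its dimmer probe set was called in COP alone (0.13 in ACI, 1.49 in COP). The ACI call of Hcls1 was lost in 4 such fits, and so was the COP call of Lcp1. Coro1a, an actin regulator of leukocytes, rose in COP by 0.87 ± 0.25 (SE; adjusted p = 0.0075) and gave -0.08 in ACI. Arhgdib was called in no strain, with differences from 0.04 to 0.31.

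The phagocyte NADPH oxidase makes superoxide. Cybb is its catalytic membrane subunit. Cybb read 116, 88.8 and 84.4 on the ACI control arrays and 266, 407, 471 and 262 on the ACI DES arrays. The Cybb signals in COP were 115, 129 and 109 in controls and 232, 179.9, 225 and 416 after DES. In BN, Cybb read 212, 164 and 129.5 in controls and 94, 96, 188 and 302 after DES. In BN, DES 1 and 2 were below the controls and DES 4 above them. With DES, Cybb rose by 1.68 ± 0.32 (SE; adjusted p = 1.49e-04) in ACI and 1.00 ± 0.32 (SE; adjusted p = 0.0145) in COP, and the BN difference was -0.11 ± 0.32 (SE; adjusted p = 0.823). The COP call was lost without COP DES 4. A dimmer Cybb probe set also passed the filter, and its BN means went up, from 66.9 ± 7.42 to 116 ± 66.6. Its means went from 47.9 ± 21.8 to 155 ± 32.0 in ACI and from 68.7 ± 33.8 to 140.0 ± 23.3 in COP (SD, n = 3 and 4).

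Ncf1, the cytosolic organizer of the oxidase, was dim. Ncf1 read 61.2, 64.3 and 57.9 on the ACI control arrays and 103, 110.4, 116 and 104 on the ACI DES arrays. The Ncf1 signals in COP were 59.3, 57.7 and 65.1 in controls and 158, 145, 114 and 132 after DES. In BN, Ncf1 read 70.2, 30.7 and 30.4 in controls and 68.2, 86.3, 109 and 77.5 after DES. No control array of any strain exceeded the percentile, and BN control 1 was just above BN DES 1. With DES, Ncf1 rose by 0.69 ± 0.23 (SE; adjusted p = 0.0189) in ACI, 0.99 ± 0.23 (SE; adjusted p = 0.00155) in COP and 0.81 ± 0.23 (SE; adjusted p = 0.0105) in BN. The BN call was lost without BN control 2 or BN control 3, and the ACI call without ACI control 3. Cyba, the partner of Cybb in the membrane, which many cell types express, was bright and was not called, at -0.05, 0.13 and -0.09.

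Strains were then compared without treatment. Between ACI and BN controls no member was higher in ACI in limma, beside 3.85% of all genes, and 7 were lower, beside 3.59%. These were Cd53, Csf1r, Fcgr2b, Fcgr3a, Laptm5, Plek and Ptprc. Mrc1 was called higher in ACI without ACI control 2 (1.25), with the number sets as a block (0.99) and on the arrays numbered 3 and 4 alone (1.81). Between COP and BN controls 7 were lower in COP, beside 3.25% of all genes, with Rac2 in place of Cd53, and Pilra and Ptpn6 were higher in COP, beside 2.78%. Pilra exceeded the percentile on 1 COP control array and on no BN control array. Its COP minus BN difference was 1.42 and was called. It was 2.46 and called with a pseudocount of 1, but 0.71 and not called with 64 (limma adjusted p = 0.0725). For Csf1r, Fcgr2b, Fcgr3a, Laptm5, Plek, Ptprc, Cd53 and Rac2 alike, all BN controls lay above all ACI and all COP controls. The difference of Fcgr2b was -2.26 ± 0.32 (SE; adjusted p = 6.47e-05) for ACI minus BN and -1.32 ± 0.32 (SE; adjusted p = 0.0131) for COP minus BN. As no ACI or COP control array of Fcgr2b exceeded the percentile, its size moved with the pseudocount, from -3.30 and -1.62 with 1 to -1.26 and -0.85 with 64, all of them called. That of Fcgr3a was -1.15 ± 0.18 (SE; adjusted p = 2.35e-04) and -0.82 ± 0.18 (SE; adjusted p = 0.00716), and that of Ptprc -0.86 ± 0.20 (SE; adjusted p = 0.00742) and -0.84 ± 0.20 (SE; adjusted p = 0.0109). A difference in RNA and a difference between strains in the sequence under the probes cannot be told apart here.

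Between ACI and COP controls no member was called in limma, beside 1.19% of all genes called either way, and 7 had an unadjusted p under 0.05. Calls against BN rested in part on 1 array. Without BN control 3, the ACI and BN count fell from 7 to 3 and the COP and BN count from 9 to 5. Without BN DES 4, which enters only through the shared spread, the filter and the adjustment, the latter was 14. With the number sets as a block it was 14 as well.

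After DES, Cd53, Fcgr3a, Laptm5 and Ptprc, all lower in ACI than in BN controls, were higher in ACI. Between ACI and BN 17 members were higher in ACI, beside 16.4% of all genes, and Cd48 was lower, beside 19.7%. Between COP and BN 15 were higher in COP, beside 13.0%, and Cd48 was lower, beside 12.9%. Pilra differed by 3.72 ± 0.32 (SE; adjusted p = 1.25e-08) for ACI minus BN and 2.58 ± 0.32 (SE; adjusted p = 4.40e-06) for COP minus BN. Only 1 of the 4 BN DES arrays of Pilra exceeded the percentile, and these sizes were 4.16 and 2.98 with a pseudocount of 1 and 2.94 and 1.89 with 64, all of them called. In ACI minus BN, Mrc1 gave 2.42 and Gpnmb 2.08. Without BN DES 2 the COP and BN count was 10 in place of 16. Csf1r, lower in both strains than in BN without treatment, was not called after it, at 0.09 and 0.32.

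Treated ACI and COP rats differed in 6 members. Cd14, Fcgr3a, Mrc1 and Pilra were higher in ACI, beside 1.76% of all genes, and Coro1a and Fcgr2b were lower, beside 3.87%. Pilra differed by 1.14 ± 0.32 (SE; adjusted p = 0.0420). The Pilra difference was 1.18 and not called with a pseudocount of 1, and 1.05 and called with 64. Mrc1 differed by 1.55 ± 0.29 (SE; adjusted p = 0.00153) and Fcgr2b by -1.46 ± 0.28 (SE; adjusted p = 0.002). The count was 3 without ACI DES 2, without ACI DES 4 or without COP DES 3.

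The responses of the strains were then compared directly. The response was larger in ACI than in BN for 17 members, beside 8.28% of all genes, and Cd48 went the other way, beside 9.49%. It was larger in COP than in BN for 13, beside 4.02% of all genes, and for none was it smaller, beside 2.93%, while 24 of the 39 had an unadjusted p under 0.05 in either direction. Both comparisons use the same BN arrays. The ACI minus BN differences of Pilra, Gpnmb and Fcgr3a were 2.77 ± 0.49 (SE; adjusted p = 5.59e-04), 2.25 ± 0.22 (SE; adjusted p = 9.60e-07) and 2.20 ± 0.24 (SE; adjusted p = 3.18e-06). In COP minus BN, Fcgr2b and Laptm5 gave 2.36 ± 0.42 (SE; adjusted p = 0.00145) and 2.36 ± 0.35 (SE; adjusted p = 2.36e-04). Cd68 gave 1.60 and 1.46, Ptprc 1.62 and 1.30, and Csf1r 0.81 and 1.31. For Ptpn6 the ACI minus BN difference was 0.83 ± 0.17 (SE; adjusted p = 0.00173). For Fcgr2b, Fcgr3a, Laptm5, Ptprc and Csf1r the BN controls were the highest controls, and this enters the difference beside the treated levels. The DES differences of Fcgr2b moved with the pseudocount. In ACI, COP and BN they were 3.56, 3.43 and 0.71 with 1, and 1.45, 2.26 and 0.52 with 64. The dimmer Laptm5 probe set gave smaller DES differences in ACI and COP and a larger one in BN than the probe set used here.

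No member differed in response between ACI and COP in limma, beside 0.647% of all genes called either way, and 6 members had an unadjusted p under 0.05. Their values for ACI minus COP were 1.09 for Cd14, -0.95 for Coro1a, 0.95 for Fcgr3a, 0.80 for Gpnmb, 1.23 for Lyz2 and 1.61 for Pilra. The 95% interval for Pilra was 0.59 to 2.63 and that for Cd68 -0.34 to 0.61. A single member was called without ACI DES 1, without COP control 1, without COP DES 4 or without BN DES 4.

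Other macrophage genes, from a list with no member in common, were set beside these. Of 17 tested, 14 rose and 1 fell in ACI, 12 rose and 1 fell in COP, and 5 rose in BN. For this and the lists below, the shares of all genes that rose were 23.1%, 21.6% and 16.9% in ACI, COP and BN, and those that fell 32.4%, 28.1% and 22.6%. The gene that fell was Lyve1, a hyaluronan receptor of lymphatic vessels and some tissue macrophages, at -0.78 in ACI and -1.03 in COP. The complement genes C1qa, C1qb and C1qc, made by tissue macrophages, rose in all 3 strains. C1qb went from 466 ± 33.9 to 2578 ± 179.8 in ACI, 359 ± 71.5 to 2892 ± 349 in COP, and 679 ± 86.5 to 1461 ± 397 in BN (SD, n = 3 and 4), with differences of 2.43 ± 0.16 (SE; adjusted p = 3.07e-11), 2.96 ± 0.16 (SE; adjusted p = 2.37e-12) and 1.06 ± 0.16 (SE; adjusted p = 2.10e-05). The summed signal of the list ran from 5779.5 to 6573 in ACI controls and from 17486 to 20034 in ACI DES arrays. COP went from 4267 to 6254 in controls and from 17849 to 23785 after DES, and BN from 8528 to 10053 and from 11828 to 18591. In this sum BN controls thus lay above, and the BN DES range reached into, those of the other strains. Bright genes weigh most in a sum, and not every gene of the list went this way. C1qa averaged 883, 743 and 1679 in ACI, COP and BN controls, while Lyve1 averaged 532, 403 and 393.

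Genes that act upstream and downstream of the members were read too. Of 4 ligands tested 1 rose and 1 fell in ACI and in COP, and 1 rose in BN. Il34, a ligand of Csf1r, rose from 148 ± 12.1 to 1130.0 ± 144 in ACI, 89.3 ± 18.8 to 659.8 ± 124 in COP, and 194 ± 0.874 to 632 ± 108 in BN, with differences of 2.80, 2.68 and 1.61. Csf1, the other ligand, was not called, at 0.24, 0.44 and 0.53. The chemokine Cx3cl1 fell in ACI (-2.14 ± 0.46 (SE; adjusted p = 5.42e-04)) and in COP (-1.25 ± 0.46 (SE; adjusted p = 0.0332)), and was not called in BN (-0.75). Of 6 transcription factors of blood cells 2 rose and 1 fell in ACI, 4 rose in COP, and 1 rose and 1 fell in BN. Cebpa, needed for the myeloid lineage, rose by 1.39 in ACI and 2.22 in COP. Of 7 further genes of ITAM signaling and the oxidase 3 rose in ACI, 4 rose and 1 fell in COP, and limma called none in BN, where 2 had an unadjusted p under 0.05. The kinase Syk, which binds ITAM adaptors, rose in ACI by 1.10 and was not called in COP (0.50). The phosphatase Inpp5d rose in COP by 0.93.

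The list of MHC class II genes divided by strain. Apart from Ciita, its genes present antigen on macrophages, dendritic cells and B cells. Ciita was tested with them and called in no strain (-0.29, 0.54 and 0.01). Of 6 tested, 1 rose in ACI, 4 rose in COP and 4 fell in BN. RT1-Ba rose by 0.82 in ACI and 1.18 in COP, and was not called in BN (-0.24). Cd74, the invariant chain, gave -0.10 in ACI, where it was not called, rose by 0.83 in COP and fell in BN with -0.73. Of the response differences 1 was called higher in ACI than BN, beside 8.28% of all genes, and 4 in COP than BN, beside 4.02%.

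Markers of other cell types moved in part. Of 14 markers of T and NK cells 3 passed the filter, Zap70, Lck and Cd3g, and limma called none of them in any strain, with no unadjusted p under 0.05. The summed signal of all 14 ran from 742 to 1069 in ACI controls and from 823 to 1039 after DES. It ran from 803 to 886 and 759.7 to 1144 in COP, and from 763 to 1005 and 739 to 1205 in BN. Of 8 granulocyte and mast cell markers on the array Cpa3 alone passed the filter, and it was not called (0.32, 0.18 and 0.36). Their sums ran from 217 to 271 in ACI controls and from 215 to 277 after DES, from 232 to 457 and 294 to 435 in COP, and from 157 to 209.9 and 134 to 409 in BN. Among B and plasma cell markers Mzb1, a chaperone of the endoplasmic reticulum of antibody-making cells, rose by 4.89, 5.90 and 3.09. Jchain, the joining chain of secreted antibodies, was not called (0.44, 0.01 and 0.42), and Cd79b, Ms4a1 and Pou2af1 did not pass the filter. The summed B and plasma cell signal rose with Mzb1, from 108 to 216 in ACI controls to 2159 to 2295 after DES, from 135 to 191 to 3090.3 to 4427 in COP, and from 164 to 199 to 537 to 1203 in BN.

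Of 6 folliculostellate cell markers 4 fell in ACI, 5 in COP and 4 in BN. Anxa1 fell with differences of -2.41, -1.58 and -1.19, and Sox2 with -2.68, -1.41 and -1.42. With Fabp7, which did not pass the filter, the summed signal ran from 7716 to 8380 in ACI controls and from 2093 to 2911 after DES. It ran from 8693 to 9902 and 4152 to 4947 in COP, and from 11703 to 13112 and 6601 to 7764 in BN. Of 8 endothelial markers 1 rose and 3 fell in ACI, 2 rose in COP and 2 rose in BN. With Vwf, which did not pass the filter, their sums were 2759.6 to 3840.4 and 2429 to 2637 in ACI. They were 2446 to 2856 and 2922 to 3342 in COP, and 2276 to 3124 and 3729 to 4659.7 in BN. Of 4 red blood cell markers 1 rose and 1 fell in ACI and in COP, and 1 rose in BN. With Rhag, which did not pass the filter, their sums were 14097 to 24299 and 7876 to 20506 in ACI. They were 15502 to 20787 and 7395 to 22039 in COP, and 7820.2 to 13683 and 7264 to 30069 in BN. Of 7 hormone genes 4 fell in ACI, 2 rose and 4 fell in COP, and 3 rose and 2 fell in BN, with Lhb at -6.08, -5.54 and -3.61. The part of these shifts in the members' values was not tested.

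**Figure D4:**
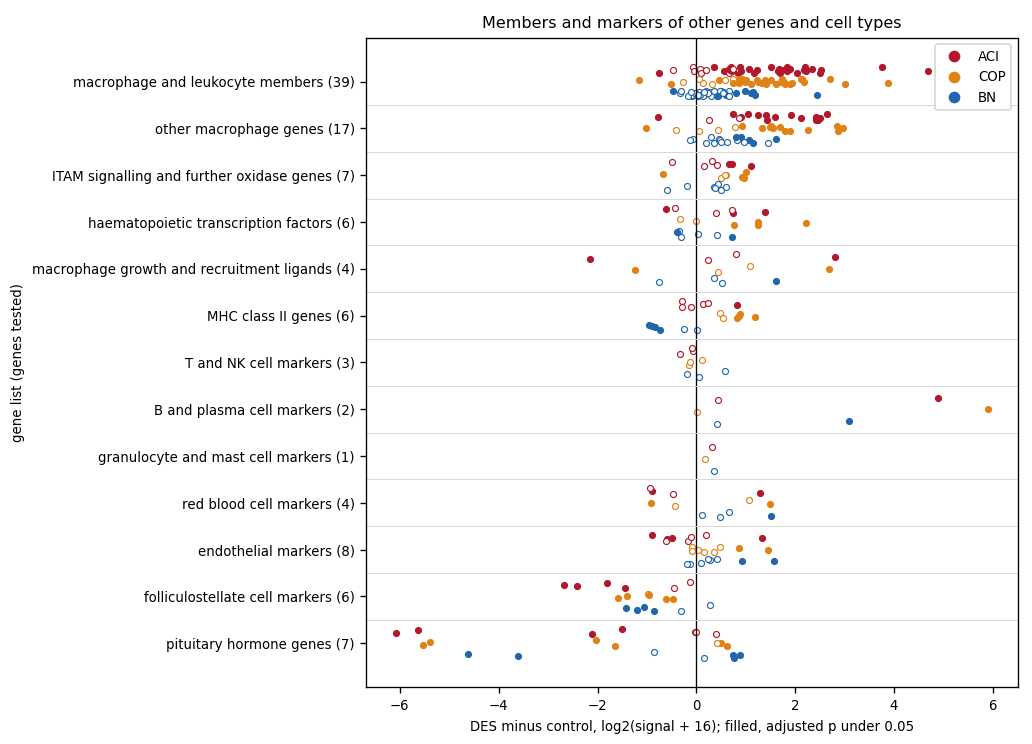
Each point is a tested gene, placed by its DES minus control difference of log2(signal + 16), in ACI (red), COP (orange) and BN (blue), filled where the adjusted p was under 0.05. The members and the other macrophage genes lie mostly right of 0 in ACI and COP. Points of T and NK cell markers lie near 0, and those of folliculostellate cells mostly left of it, with Mzb1 alone at 4.89, 5.90 and 3.09 among the B and plasma cell markers.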

How the data were processed

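Per the labels, total RNA was labeled with biotin and hybridized to 1-color arrays. The authors deposited 1 linear intensity value for each probe set and array (0.1 to 71813.9), scaled to a trimmed mean near 500.2 on each array. The summarization software is not given in the sources used here, and the scanner files were not used. Of 31099 probe sets 57 controls were left out, and 20826 of the rest had 1 symbol, 436 several and 9780 none. A gene was represented by its probe set with the highest mean log2 signal. The further Pilra probe set that carries 2 symbols was left out.

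Signals were tested as log2(signal + 16) on 21858 probe sets (11744 genes) with limma 3.58.1 in R 4.3.3, with 6 group means, a variance trend, 21.6 degrees of freedom and Benjamini-Hochberg adjustment over all probe sets within each comparison. All tests were two-sided, errors of fitted differences are SE, and the number of arrays limits the precision. Exact permutation tests used scipy 1.17.1. The fit was run on simulated data with noise drawn independently for each array. That run does not cover the deviations shared by arrays of the same number set. The members, role groups and further lists were chosen with earlier results of these data known. Members given array by array were Cd68, Fcgr2b, Pilra, the 2 of each role with the smallest adjusted p for DES in any strain, and up to 6 per strain comparison in controls or in response. Up to 3 genes of each further list are named, by the smallest adjusted p. Csf1, Syk, Lyve1, Ciita, Prl, Gh1, Jchain, Cd79b, Ms4a1 and Pou2af1 were added after their values were seen. Alternatives were other filters, pseudocounts, scalings, blocks, subsets of arrays, variance models and gene summaries, and leaving out each array.

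Equal replicate numbers were checked as pairs. Deviations from group means correlated with a median r of 0.113 between arrays of the same number, 0.112 between other numbers of the same set (1 and 2, or 3 and 4) and -0.124 between sets, and 32 of 48 same-number pairs passed 0.1, so the numbers were not taken to pair the arrays.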

Additional observations from a re-analysis of the deposited data

Results flagged for a closer look

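In 6 of 123 groups of 4 DES arrays, 1 array stood far from the other 3. Chance gives about 1 in 20, or 6.15 here. The gap to the nearest array, as a share of the group's range, was 0.955 for Arhgdib (DES 1, high), 0.929 for Cd14 (DES 3, high), 0.920 for Fcgr3a (DES 1, low) and 0.876 for Laptm5 (DES 1, low) in ACI. It was 0.836 for Laptm5 in BN (DES 4, high) and 0.928 for Ptprc in COP (DES 3, low).

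The response to DES differed between strains by a test of the difference itself. Values are of the brightest probe set of each gene, and the dimmer ones of Laptm5 and Cybb changed otherwise with DES, as described above. The size for Fcgr2b depends on the pseudocount, as its DES differences above show. For ACI minus BN it was larger in ACI for Pilra (2.77), Gpnmb (2.25), Fcgr3a (2.20), Laptm5 (1.86), Fcgr2b (1.84), Cybb (1.79), Ptprc (1.62), Cd68 (1.60), Mrc1 (1.42), Cd53 (1.35), Rac2 (1.33), Aif1 (1.28), Cd14 (1.23), Fcer1g (1.19), Lgals3 (1.02), Ptpn6 (0.83) and Csf1r (0.81), on the log2 scale. Cd48 went the other way (-0.67). For COP minus BN the difference was 2.36 for Fcgr2b and 2.36 for Laptm5, then 1.78 for Rac2, 1.46 for Cd68, 1.45 for Gpnmb, 1.44 for Tyrobp, 1.38 for Aif1, 1.37 for Plek, 1.31 for Csf1r, 1.30 for Ptprc, 1.26 for Cd53, 1.25 for Fcgr3a and 1.15 for Fcer1g.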

How the results depend on the processing

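Of 92 single-member differences followed, 6 changed sign under an alternative. All were BN differences called neither in the fit as reported nor under those alternatives, and the cause was not tested. On arrays numbered 1 and 2 alone Fcgr3a gave -0.077, Ptprc -0.15 and Plek -0.33, and on arrays numbered 3 and 4 alone Rac2 gave 0.050, Cybb 0.81 and Csf1r -0.13. With the replicate block Ptprc gave -0.039 and Plek -0.082, and with the number sets as a block Plek gave -0.039. Cybb gave 0.032 after quantile normalization and 0.22 as the mean over probe sets. Leaving out each array gave -0.027 to 0.24 for Fcgr3a, -0.15 to 0.19 for Ptprc, -0.39 to 0.0023 for Rac2, -0.19 to 0.21 for Plek, -0.42 to 0.090 for Cybb and -0.17 to 0.25 for Csf1r. The counts of members below moved by more than 1.5 times, and the cause was not tested. The share of all genes called was taken for the fit as reported alone. On arrays numbered 3 and 4 alone, which leave 1 control array a group with the spread shared over groups, 18 rose in ACI and 1 fell in COP, 3 differed in controls for ACI and BN and 3 for COP and BN, 3 after DES for ACI and COP and 9 for COP and BN, and 11 and 5 responses differed from BN in ACI and COP. On arrays numbered 1 and 2 alone, 5 rose and 5 fell in BN, 14, 3 and 18 differed in controls (ACI and BN, ACI and COP, COP and BN), and 2 responses differed between ACI and COP. With only the compared groups in the fit, 5 rose and 0 fell in BN, 1 differed between ACI and COP controls and 3 in their response. With the replicate block, 14 differed between COP and BN controls and 1 response between ACI and COP, and these counts were 14 and 2 with the number sets as a block; of the 73 DES calls of all members the replicate block ended 4 (Cd68 and Pilra in BN, Cd37 in COP, Lcp2 in ACI) and added Cd4 in COP and BN, while the sets as a block ended 0. With either block 1 member, Mrc1, was higher and 9 lower in ACI than BN controls. Deviations of same-numbered arrays correlated at -0.0467 to 0.316 over 48 pairs, so the numbers were not taken to pair the arrays. Without a variance trend 2 fell in ACI, and with a pseudocount of 64, 1 response differed between ACI and COP. Leaving out each array gave 1 to 2 falls in ACI, 1 to 2 falls in COP, 4 to 11 rises in BN, 3 to 9 and 5 to 14 differences from BN in ACI and COP controls, 3 to 7 and 10 to 21 after DES for ACI and COP and for COP and BN, and 0 to 1 for the response of ACI minus COP. The DES call held in every fit without 1 array for 25 members in ACI, 28 in COP and 4 in BN. Dim signals near the percentile used as filter limit the values of 9 members. They also limit those of Fcgr2b, Gpnmb and Clec4a in strains whose controls lay below it.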
